A study of Mus musculus with 8 samples.

Results

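Fatty acid uptake and oxidation in Eif6+/- muscle is followed here through 32 genes, listed by symbol as the carriers, lipases and enzymes that bring fatty acids into the fibre and oxidize them, and found on the arrays through the RefSeq accession of their probes. They are 32 of 20660 genes with a named probe, and all 32 are among the 12202 genes tested in both muscles. The study asked how muscle differs between mice with 1 inactivated copy of Eif6 and wild-type (WT) mice. RNA of gastrocnemius and of tibialis anterior (TA) was compared on 8 Agilent 2-colour arrays, 4 for each muscle. On each array an Eif6+/- mouse, labelled with Cy5, was set against an age-matched WT mouse, labelled with Cy3, and mice were assigned to pairs at random. The dyes are those of the sample labels, which were followed, whereas the study's methods mention Cy3 alone. Both genotypes were male littermates on C57BL6, 8 to 16 weeks old and fed chow ad libitum. Excess fat or connective tissue had been removed from the muscles before freezing. The dyes were not swapped on any of the 8 arrays, so the effect of genotype within a muscle and that of the dye cannot be told apart. Gastrocnemius and TA lay in different rows of 1 slide, so that muscle and row cannot be told apart.

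Each array held 62976 spots, and the median spot had an intensity of 60 to 74 in Cy5 over a local background of 41 to 44, and of 46 to 61 in Cy3 over a background of 20 to 22. The scanner software marked 44.8% to 49.8% of the Cy5 spots and 40.2% to 47.3% of the Cy3 spots as well above background. The brightest probe of every one of the 32 genes was well above background in both channels on all 8 arrays. So were all 8 markers of skeletal muscle (Ckm, Acta1, Mb, Des, Myf6, Ttn, Neb and Ryr1). Values below are log2 ratios of Eif6+/- over WT within a pair, or levels, which are the normalized log2 intensities of 1 channel. A gene is read from its brightest probe. It is called higher or lower where limma gave a Benjamini-Hochberg adjusted p under 0.1 over all probes tested, and "not called" means that it missed this threshold.

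Muscle takes up fatty acids that lipoprotein lipase frees from circulating triglycerides, or draws them from its own lipid droplets. The fatty acids are bound to coenzyme A, carried into the mitochondrion on carnitine and shortened by repeated rounds of beta-oxidation, with the electrons passed on through the electron transfer flavoprotein. Slow and IIA fibres are known for relying on this pathway more than the fast glycolytic fibres that make up most of both muscles.

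Eif6, the gene with 1 inactivated copy, encodes a factor that keeps the large ribosomal subunit apart from the small one and acts in translation. In gastrocnemius its WT level was 10.56, 10.90, 10.65 and 10.65 in pairs 1 to 4 and its Eif6+/- level 9.59, 9.75, 9.76 and 9.59. The WT level in TA was 10.67, 10.52, 10.52 and 10.44 and the Eif6+/- level 9.45, 9.49, 9.57 and 9.64. Every Eif6+/- sample lay below every WT sample. The log2 ratio was −1.02 ± 0.11 (SD, n = 4 pairs, adjusted p = 0.0239) in gastrocnemius and −0.999 ± 0.17 (adjusted p = 0.0108) in TA. Tested between the muscles, the difference was −0.02 (95% interval −0.26 to 0.23, adjusted p = 0.980). In gastrocnemius the adjusted p rose to 0.121 without pair 3 and 0.157 without pair 4 (range over 16 alternative settings 0.000658 to 0.157). Whether the probes of Eif6 lie in the stretch that was inactivated is not known.

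In gastrocnemius, 5 of the 32 genes were called higher in Eif6+/- mice, beside 9.89% of all 12610 genes tested there. They were Acot13, Acsl1, Etfdh, Mlycd and Eci2. These were also the 5 of 32 with a ratio above 0 in all 4 pairs, beside 21.4% of all genes. With limma 0 of the 32 were called lower, beside 5.55% of all genes, and 0 had an unadjusted p under 0.05 in that direction. SAM, the test named in the study's methods, called 7 higher, the same 5 with Cpt2 and Lpl, beside 2145 of 12606 genes. It called 0 of the 32 lower, beside 1015 genes. The median ratio of the 32 was 0.16, against 0.02 over all genes, and 22 of 32 lay above 0, beside 53.9% of all genes. It was 0.06 without pair 1, 0.29 without pair 2 and 0.25 without pair 4. The offset at 0 ended the calls of Etfdh, Mlycd and Eci2, Agilent's processed signals all but that of Etfdh, and a threshold of 0.05 all but that of Acot13. Etfdh was also lost with no filter on dim probes. Without pair 3 or without pair 4 limma called 0 of the 32 and 0 of the 12670 and 12813 genes then tested, with 2444 and 2681 genes at an unadjusted p under 0.05. Without pair 1 there were 2 called higher (Acot13 and Eci2) and 3 called lower (Acads, Hadha and Lipe), beside 1052 and 727 of 12657 genes. Without pair 2 there were 6 called higher, beside 793 of 12736 genes, with Acaa2 and Hadhb gained and Eci2 lost. Cpt2 was gained with all 8 arrays in 1 fit.

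In TA the calls were of other genes, and lower. Of the 32 genes, 8 were called lower in Eif6+/- mice, beside 7.27% of all 12380 genes: Acads, Hadha, Crat, Acadm, Acadl, Slc27a1, Eci1 and Lipe. SAM called these 8 lower as well, beside 1118 of 12378 genes. Higher calls numbered 0 by limma, beside 8.98% of all genes, with 0 at an unadjusted p under 0.05, and 0 by SAM, beside 1486 genes. In gastrocnemius the mean ratios of the 8, in that order, were −0.34, −0.27, −0.16, −0.01, 0.15, −0.16, 0.16 and −0.35. The 5 genes called higher in gastrocnemius had TA means of 0.21 (Acot13), 0.02 (Acsl1), 0.07 (Etfdh), −0.08 (Mlycd) and 0.01 (Eci2). Most of the called genes thus kept the sign of their mean in the other muscle. The median ratio in TA was −0.15, against 0.02 over all genes. Of the 32 mean ratios, 5 lay above 0 and 27 below, beside 54% of all genes above 0. In all 4 pairs 10 of 32 lay below 0, beside 15.6% of all genes. The median was −0.04 without pair 4, where 11 of 32 lay above 0, and −0.23 without pair 3 or with the mean of a gene's probes. The calls of Acadl, Slc27a1, Eci1 and Lipe ended with the offset at 0, with the processed signals, at a threshold of 0.05 and with all 8 arrays in 1 fit, which also ended that of Acadm. Leaving out pair 1 left 1 lower call, Acads, while 68 genes were called on the whole array, 15 of 12442 as lower. There were 5 lower calls without pair 2, where Ucp3 was gained, beside 197 of 12549 genes. Without pair 3 there were 10, with Fabp3 and Cd36 gained, beside 451 of 12399 genes. Without pair 4 there were 5, beside 929 of 12541 genes, and Acot13 was also called higher, beside 1101. Cpt2 was gained as lower with the mean of its probes.

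The pairs of a muscle differed among themselves. The median ratio of the 32 genes was 0.50, −0.20, 0.40 and −0.08 in gastrocnemius pairs 1 to 4, and −0.23, 0.02, −0.02 and −0.41 in TA pairs 1 to 4. Pairs 1 and 3 of gastrocnemius were thus the high ones and pair 4 of TA the lowest, where 31 of 32 genes lay below 0, beside 5999 of all 12200. Over all genes tested the median stayed between 0.0035 and 0.04 on every array, where the normalization holds it near 0. The summed level of the 32 genes in gastrocnemius was 161880, 233056, 170558 and 277944 in WT and 276792, 207929, 258768 and 281115 in Eif6+/-. In TA it was 292123, 271804, 229789 and 349608 in WT and 254903, 280890, 252383 and 252830 in Eif6+/-. The WT samples covered the wider range in both muscles. In whole muscle, fewer cells of a type and less RNA per cell cannot be told apart.

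**Figure D1:**
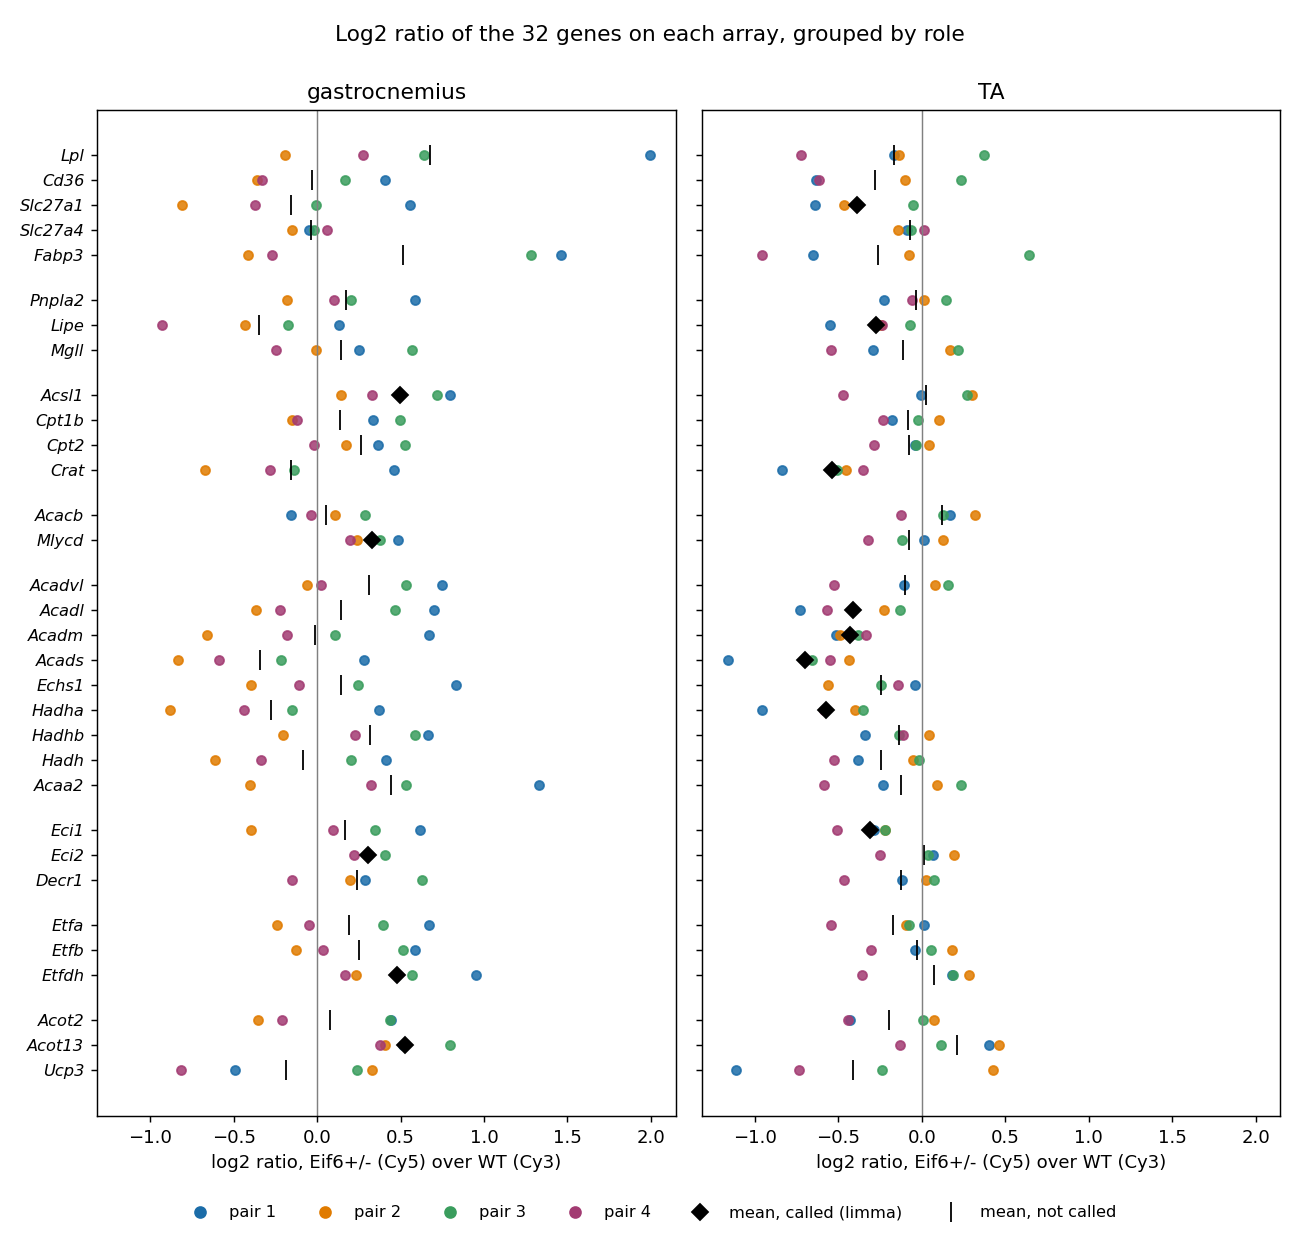
Log2 ratio of Eif6+/- over WT for the 32 genes in each of the 8 pairs, grouped by role in the pathway. Pairs 1 and 3 of gastrocnemius hold most of the high ratios, and 31 of 32 genes lie below 0 in pair 4 of TA.

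Uptake at the cell surface and binding in the cytosol involve 5 of the genes. Lpl, the lipase that frees fatty acids from circulating triglycerides, had ratios of 1.99, −0.19, 0.64 and 0.28 in gastrocnemius and −0.17, −0.14, 0.37 and −0.72 in TA. Fabp3, which carries fatty acids in the cytosol of muscle, had ratios of 1.46, −0.41, 1.28 and −0.27 and −0.65, −0.08, 0.64 and −0.95. Both were high in pairs 1 and 3 of gastrocnemius and lowest in pair 4 of TA, and limma called neither (Lpl adjusted p = 0.212 and 0.498, Fabp3 0.355 and 0.471), while SAM called Lpl higher in gastrocnemius and limma called Fabp3 lower in TA without pair 3. The WT level of Fabp3 in gastrocnemius was 14.04, 15.41, 14.34 and 15.78, whereas the Eif6+/- level was 15.50, 14.99, 15.62 and 15.51. The spread of Fabp3 ratios thus came with a wider spread among WT than among Eif6+/- samples. The other probe of Lpl gave 0.16 in gastrocnemius and −0.39 (adjusted p = 0.0920) in TA.

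Slc27a1, a transporter that moves fatty acids inward and binds them to coenzyme A, was the one uptake gene that limma called. Its WT level in TA was 10.08, 9.86, 9.27 and 9.77, and its Eif6+/- level 9.44, 9.39, 9.22 and 9.38. All 4 pairs were lower in Eif6+/-, pair 3 by little, and the groups overlapped. The ratio was −0.39 ± 0.24 (SD, n = 4 pairs, adjusted p = 0.0536), with adjusted p from 0.0410 to 0.234 over the alternatives, 0.234 without pair 1 and 0.153 without pair 2. In gastrocnemius its ratios were 0.55, −0.81, −0.0050 and −0.37, and the difference between the muscles was 0.23 (95% interval −0.32 to 0.77, adjusted p = 0.831). Cd36, the main fatty acid translocase of muscle, had ratios of 0.41, −0.36, 0.17 and −0.33 in gastrocnemius and −0.63, −0.10, 0.24 and −0.61 in TA, above 0 in some pairs and below 0 in others, and was called lower in TA without pair 3 alone. Slc27a4, a related transporter, lay between −0.15 and 0.06 in gastrocnemius and between −0.14 and 0.02 in TA, the narrowest spread of the 5.

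Hydrolysis of stored triglyceride runs through Pnpla2, then Lipe, then Mgll, each of which removes a fatty acid in turn. Lipe, the hormone-sensitive lipase, had a WT level in TA of 7.24, 6.99, 6.92 and 7.04 and an Eif6+/- level of 6.69, 6.74, 6.85 and 6.80. All 4 Eif6+/- samples lay below all 4 WT samples. The ratio was −0.28 ± 0.20 (SD, n = 4 pairs, adjusted p = 0.0920). This call was kept under 8 of 16 alternatives (adjusted p 0.0768 to 0.322), and was lost without pair 1 (0.322), pair 2 (0.190) or pair 4 (0.131). It was also lost with loess alone (0.118), in 1 fit of all 8 arrays (0.245) and at 0.05. Its ratio moved to −0.48 with the offset at 0 and −0.60 with the processed signals, where the call was lost too (0.101 and 0.129). In gastrocnemius the Lipe ratios were 0.13, −0.43, −0.17 and −0.93 (adjusted p = 0.212), lowest in pair 4 and called lower without pair 1, and the difference between the muscles was −0.07 (95% interval −0.52 to 0.37, adjusted p = 0.944). Pnpla2, the adipose triglyceride lipase, lay between −0.18 and 0.59 in gastrocnemius and between −0.23 and 0.14 in TA and was not called in either. Mgll, the monoglyceride lipase, lay between −0.25 and 0.57 and between −0.54 and 0.22, also not called. The third probe of Mgll gave −0.07 in gastrocnemius and −0.44 (adjusted p = 0.0479) in TA.

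Activation and the carnitine shuttle involve Acsl1, Cpt1b, Cpt2 and Crat. Acsl1, which binds long-chain fatty acids to coenzyme A, had a WT level in gastrocnemius of 12.95, 12.99, 12.87 and 13.42 and an Eif6+/- level of 13.75, 13.14, 13.59 and 13.75. It was higher in the Eif6+/- mouse of all 4 pairs, most in pairs 1 and 3, and the groups overlapped. The ratio was 0.50 ± 0.31 (SD, n = 4 pairs, adjusted p = 0.0598). It was not called without pair 1 (adjusted p = 0.106), pair 3 (0.211) or pair 4 (0.172). Over the alternatives the adjusted p ran from 0.0390 to 0.775, the highest with the mean of the 2 probes, where the ratio was 0.09, and its other probe gave −0.32. That other probe was called lower in TA (−0.66, adjusted p = 0.0370), where the brighter one gave −0.0020, 0.30, 0.27 and −0.47. For Acsl1 the difference between muscles was 0.47 (95% interval 0.04 to 0.90, adjusted p = 0.635).

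Crat, which exchanges short acyl groups between coenzyme A and carnitine, fell in TA. Its WT level there was 10.09, 9.67, 9.53 and 9.51 and its Eif6+/- level 9.25, 9.21, 9.02 and 9.16. The groups did not overlap, and the ratio was −0.54 ± 0.21 (SD, n = 4 pairs, adjusted p = 0.0219). The call was kept under 15 of 16 alternatives and lost without pair 1 (adjusted p = 0.114, range 0.0142 to 0.114). Crat ratios in gastrocnemius were 0.46, −0.67, −0.14 and −0.28, above 0 in pair 1 and below 0 in the others, and the difference between the muscles was 0.38 (95% interval −0.08 to 0.84, adjusted p = 0.665). Cpt1b, the muscle form of the carnitine palmitoyltransferase that starts the shuttle, had ratios of 0.33, −0.15, 0.50 and −0.12 in gastrocnemius and −0.18, 0.10, −0.02 and −0.23 in TA. Cpt2, which ends it inside the mitochondrion, had ratios of 0.36, 0.17, 0.53 and −0.02 and −0.04, 0.04, −0.03 and −0.28. Neither was called in either muscle, though SAM and the fit of all 8 arrays called Cpt2 higher in gastrocnemius. The other probe of Cpt1b turned direction in gastrocnemius, at −0.13 against 0.14. That of Cpt2 was called lower in TA (−0.54, adjusted p = 0.0229), where its brighter probe gave −0.08, below 0 as well, and the mean of both was called lower.

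Malonyl-CoA, the inhibitor of the shuttle, is made by Acacb and broken down by Mlycd. Mlycd had ratios of 0.49, 0.24, 0.38 and 0.20 in gastrocnemius and 0.01, 0.13, −0.12 and −0.32 in TA. All 4 gastrocnemius ratios lay above all 4 TA ratios. Its WT level in gastrocnemius was 12.60, 12.44, 12.35 and 12.84 and its Eif6+/- level 13.08, 12.68, 12.73 and 13.04, so that the genotypes overlapped across pairs. Mlycd rose in gastrocnemius by 0.33 ± 0.13 (SD, n = 4 pairs, adjusted p = 0.0598). This call was lost without pair 1 (adjusted p = 0.118), pair 3 (0.198) or pair 4 (0.171), and over the alternatives the adjusted p lay at 0.0294 to 0.198. Gastrocnemius minus TA gave 0.40 (95% interval 0.14 to 0.66, adjusted p = 0.635) for Mlycd. Acacb, the acetyl-CoA carboxylase of the outer mitochondrial membrane, had ratios of −0.16, 0.11, 0.29 and −0.03 and 0.17, 0.32, 0.13 and −0.12 and was not called. The other probe of Acacb was called lower in both muscles (−0.45, adjusted p = 0.0462, and −0.40, adjusted p = 0.0637), so the direction of Acacb depended on the probe. The dimmer probe gave the lower mean ratio in both muscles for Lpl, Fabp3, Acsl1, Cpt1b, Cpt2, Decr1 and Ucp3 too. Etfa (lower in TA alone) and Mgll were mixed. Mean log2 signal was 12.23 to 13.98 for the genes called higher in gastrocnemius and 7.09 to 13.50 for those called lower in TA. A link of ratio and signal was not tested.

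The beta-oxidation spiral is covered by 9 genes. The first step belongs to acyl-CoA dehydrogenases for very long (Acadvl), long (Acadl), medium (Acadm) and short (Acads) chains. The later steps belong to Echs1, Hadh and Acaa2, and, for long chains, to Hadha and Hadhb, the subunits of the trifunctional protein. In gastrocnemius limma called 0 of the 9, beside 9.89% of all genes higher and 5.55% lower, with 0 at an unadjusted p under 0.05, beside 29.0%, and 0 by SAM. All 9 lay above 0 in pair 1, beside 6532 of all 12200 genes, and all 9 below 0 in pair 2, beside 5646. In TA 4 of 9 were called lower, beside 7.27% of all genes. They were Acads, Hadha, Acadm and Acadl. All 9 lay below 0 in TA pairs 1 and 4, beside 5491 and 5999 of the 12200.

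Acads had a WT level in TA of 10.39, 9.86, 9.76 and 9.77 and an Eif6+/- level of 9.22, 9.42, 9.11 and 9.21. Every Eif6+/- sample lay below every WT sample, and the WT sample of pair 1 stood above the other 3. Its ratio was −0.70 ± 0.32 (SD, n = 4 pairs, adjusted p = 0.0207), a call kept under all 16 alternatives (adjusted p 0.0145 to 0.0988). In gastrocnemius its ratios were 0.28, −0.83, −0.22 and −0.59 (adjusted p = 0.248), above 0 in pair 1 alone, and limma called it lower without that pair. Tested between the muscles, the difference was 0.36 (95% interval −0.15 to 0.87, adjusted p = 0.707), so a difference of the effect was not shown.

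Acadm, the medium-chain dehydrogenase, had the most even ratios of the 8 genes called lower in TA, −0.51, −0.49, −0.38 and −0.33. Its level there was 13.97, 13.85, 13.52 and 13.86 in WT and 13.46, 13.36, 13.14 and 13.53 in Eif6+/-. The levels of the groups overlapped, although the Eif6+/- mouse was the lower one in every pair. The ratio was −0.43 ± 0.08 (SD, n = 4 pairs, adjusted p = 0.0204), and the call was lost without pair 1 (adjusted p = 0.127) and with all 8 arrays in 1 fit (0.125, range 0.0107 to 0.127). In gastrocnemius the Acadm ratios were 0.67, −0.66, 0.11 and −0.18, high in pair 1 and low in pair 2. For Acadm the difference between muscles was 0.42 (95% interval −0.08 to 0.91, adjusted p = 0.664).

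Acadl, the long-chain dehydrogenase, had ratios of −0.73, −0.22, −0.13 and −0.57 in TA and 0.70, −0.37, 0.46 and −0.22 in gastrocnemius. In TA it was lower, with a mean ratio of −0.41 ± 0.28 (SD, n = 4 pairs, adjusted p = 0.0561), a call lost without pair 1 (0.237), pair 2 (0.106) or pair 4 (0.112, range 0.0498 to 0.237). Its groups overlapped in TA, with WT levels between 11.22 and 11.89 and Eif6+/- levels between 11.09 and 11.33. Gastrocnemius minus TA gave 0.56 (95% interval 0.04 to 1.07, adjusted p = 0.635) for Acadl. Acadvl had ratios of 0.75, −0.06, 0.54 and 0.02 in gastrocnemius and −0.10, 0.08, 0.16 and −0.53 in TA and was not called in either.

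Hadha and Hadhb, which encode the 2 kinds of subunit of 1 enzyme, were not called alike. The WT level of Hadha in TA was 10.60, 10.36, 10.00 and 10.57 and the Eif6+/- level 9.65, 9.96, 9.65 and 9.99, with no overlap. Its ratio was −0.57 ± 0.28 (SD, n = 4 pairs, adjusted p = 0.0261), and 0.119 was the adjusted p without pair 1 (range 0.0196 to 0.119). Hadhb in TA had ratios of −0.34, 0.04, −0.14 and −0.11 (adjusted p = 0.299) and was not called. In gastrocnemius Hadha had ratios of 0.37, −0.88, −0.15 and −0.44 and Hadhb of 0.66, −0.21, 0.59 and 0.23, with Hadha called lower without pair 1 and Hadhb higher without pair 2. On each of the 8 arrays the ratio from the Hadha probe lay below that from the Hadhb probe, a difference in which a fixed dye effect of the probes cannot be told apart. Tested between the muscles, the difference was 0.30 (95% interval −0.22 to 0.82, adjusted p = 0.764) for Hadha and 0.46 (95% interval 0.06 to 0.85, adjusted p = 0.635) for Hadhb. Of the remaining genes, Echs1, the enoyl-CoA hydratase, lay below 0 in all 4 TA pairs (−0.04, −0.56, −0.24 and −0.14, adjusted p = 0.132). Hadh, the short-chain hydroxyacyl-CoA dehydrogenase, lay below 0 there as well (−0.38, −0.05, −0.02 and −0.52, adjusted p = 0.154). Acaa2, the thiolase of the last step, ranged between −0.40 and 1.33 in gastrocnemius, where it was called higher without pair 2, and between −0.58 and 0.24 in TA.

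**Figure D2:**
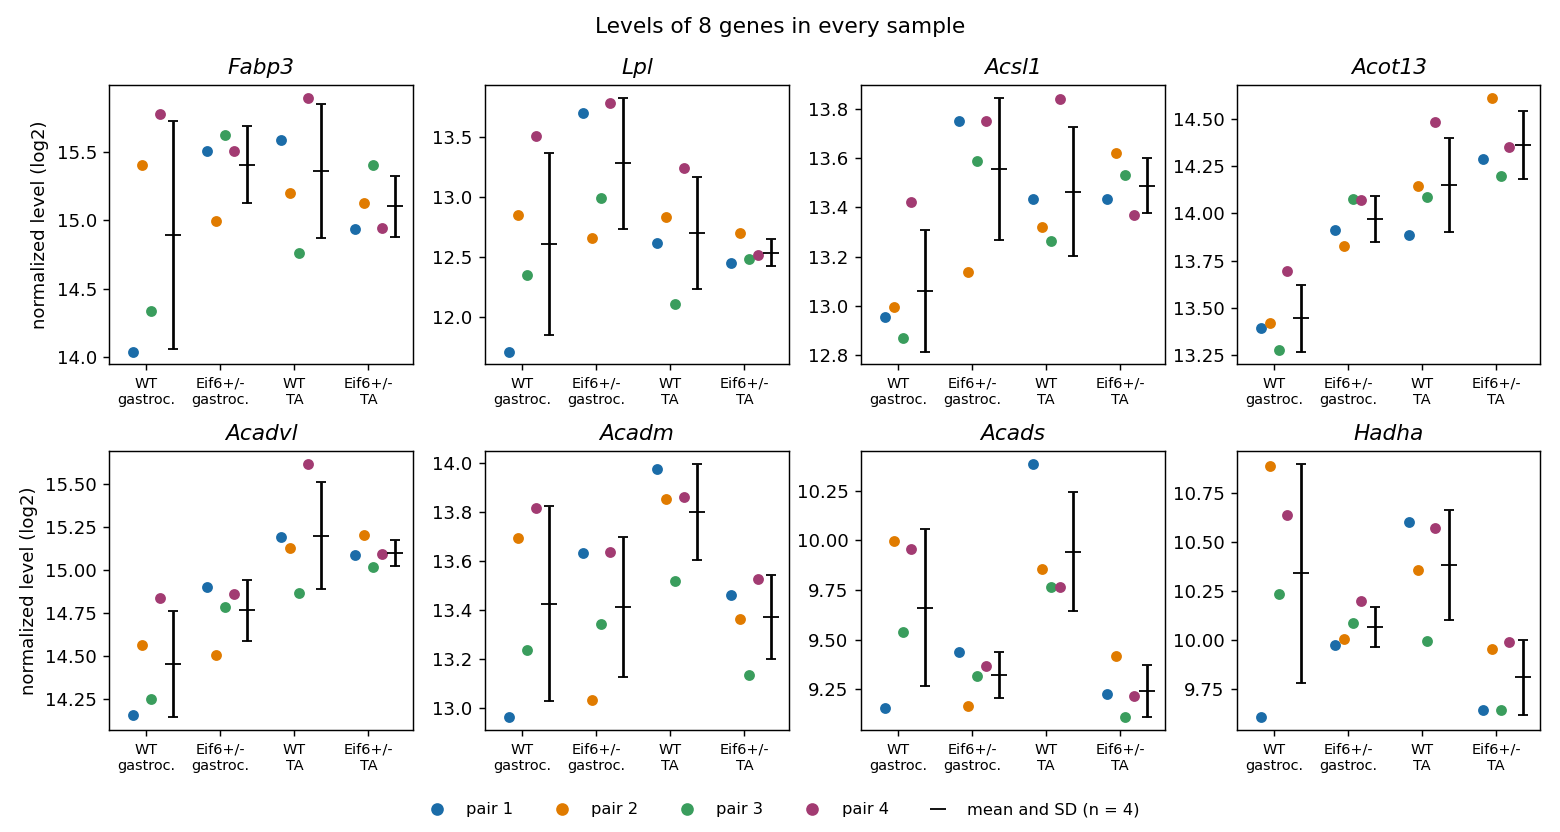
Normalized log2 level of 8 of the genes in WT and Eif6+/- samples of both muscles, with each sample as a point and the mean and SD of 4 samples. Acads and Hadha lie lower in every Eif6+/- than in every WT sample of TA, and Acot13 lies higher in every Eif6+/- than in every WT sample of gastrocnemius.

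The promoters of these genes were read for motifs of nuclear receptors, the class of factors known to govern the pathway. The RefSeq promoter table (mouse build GRCm38.p6, 250 bases before to 50 after each start) held 26 of the 32 genes, in 31 windows, and not Lpl, Cpt1b, Crat, Acaa2, Decr1 or Acot13. On both strands, AGGTCA was found in 6 of the 31 windows, each of another gene, and in 16.3% of all 32851 promoters. The 6 genes were Cd36, Acacb, Acadvl, Acadm, Echs1 and Ucp3. The longer TNAAGGTCA, which contains AGGTCA and is known as the estrogen-related receptor element, was in 1.28% of all promoters, and AGGNCA in direct repeat 1 base apart was in 0.381%. Neither was found in a window of the 26 genes. A match describes letters and not a bound site. Acadm is printed because it was called lower in TA with the most even ratios of those called, and Hadha because it shares most of these bases with Hadhb, which was not called. Acadm lies on the minus strand at chr3:153944644-153944893 and Hadha on the minus strand at chr5:30154981-30155230. In Acadm capitals mark AGGTCA on the opposite strand, at −249 from the start. In Hadha capitals mark the 228 bases that also lie among the 250 before the start of Hadhb, which is read the other way from a start 272 bases off (chr5:30155003-30155252, plus strand).
Acadm: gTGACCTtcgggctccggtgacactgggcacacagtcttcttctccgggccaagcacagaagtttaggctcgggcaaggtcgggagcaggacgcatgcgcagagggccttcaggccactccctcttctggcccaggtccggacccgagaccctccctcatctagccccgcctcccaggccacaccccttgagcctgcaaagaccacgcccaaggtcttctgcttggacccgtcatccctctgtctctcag
Hadha: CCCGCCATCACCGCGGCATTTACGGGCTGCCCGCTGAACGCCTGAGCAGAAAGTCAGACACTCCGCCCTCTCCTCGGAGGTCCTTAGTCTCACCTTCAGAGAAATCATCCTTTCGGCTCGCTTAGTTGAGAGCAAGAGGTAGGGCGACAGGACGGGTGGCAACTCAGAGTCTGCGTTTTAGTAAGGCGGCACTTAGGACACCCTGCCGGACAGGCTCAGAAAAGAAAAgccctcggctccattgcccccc

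Unsaturated fatty acids need the auxiliary enzymes Eci1, Eci2 and Decr1, which shift or reduce double bonds so that the spiral can go on. Eci2 had a WT level in gastrocnemius of 12.35, 12.34, 12.24 and 12.45 and an Eif6+/- level of 12.66, 12.64, 12.65 and 12.67. All 4 Eif6+/- samples lay above all 4 WT samples and close to each other. Its ratio was 0.31 ± 0.08 (SD, n = 4 pairs, adjusted p = 0.0547). Leaving out pair 2, 3 or 4 ended the call, at adjusted p of 0.104, 0.188 and 0.172 (range 0.0285 to 0.188). In TA the ratios of Eci2 were 0.07, 0.19, 0.04 and −0.25, all below those of gastrocnemius, and the difference between the muscles was 0.30 (95% interval 0.05 to 0.54, adjusted p = 0.635). Eci1 was called in the other muscle and direction. Its ratios were −0.28, −0.22, −0.22 and −0.51 in TA and 0.62, −0.40, 0.34 and 0.09 in gastrocnemius. In TA it was lower, with a mean ratio of −0.31 ± 0.14 (SD, n = 4 pairs, adjusted p = 0.0523), with an overlap of the groups, and the call was lost without pair 1 (0.197), pair 2 (0.117) or pair 4 (0.103, range 0.0394 to 0.197). For Eci1 the difference between muscles was 0.47 (95% interval 0.06 to 0.88, adjusted p = 0.635). Decr1 had ratios of 0.29, 0.20, 0.63 and −0.15 in gastrocnemius and −0.12, 0.02, 0.07 and −0.47 in TA and was not called.

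Electrons from the dehydrogenases pass to the flavoprotein of Etfa and Etfb and from it to ubiquinone by Etfdh. Etfdh had a WT level in gastrocnemius of 11.47, 11.76, 11.66 and 12.14 and an Eif6+/- level of 12.42, 11.99, 12.23 and 12.31. Each Eif6+/- mouse was above the WT mouse of its pair, most in pair 1, and the groups overlapped. The ratio was 0.48 ± 0.36 (SD, n = 4 pairs, adjusted p = 0.0794). The call was lost without pair 1 (0.125), pair 3 (0.251) or pair 4 (0.169, range 0.0418 to 0.251). In TA Etfdh had ratios of 0.18, 0.28, 0.19 and −0.36, with pair 4 apart from the others, and the difference between the muscles was 0.40 (95% interval −0.02 to 0.83, adjusted p = 0.646). Etfa (0.67, −0.24, 0.39 and −0.05) and Etfb (0.59, −0.13, 0.51 and 0.04) were not called in gastrocnemius, where both were high in pairs 1 and 3. In TA Etfa lay between −0.54 and 0.01 and Etfb between −0.30 and 0.18, both lowest in pair 4.

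Thioesterases split acyl-CoA back into fatty acid and coenzyme A. Acot13 had a WT level in gastrocnemius of 13.40, 13.42, 13.28 and 13.69 and an Eif6+/- level of 13.91, 13.83, 14.07 and 14.07. The groups did not overlap. The ratio was 0.52 ± 0.19 (SD, n = 4 pairs, adjusted p = 0.0349), and the call was kept under 13 of 16 alternatives, with an adjusted p of 0.111 with Agilent's processed signals, 0.129 without pair 3 and 0.157 without pair 4 (range 0.0132 to 0.157). Acot13 in TA had ratios of 0.40, 0.46, 0.11 and −0.13 (adjusted p = 0.227), and without TA pair 4 limma called it higher there too. Gastrocnemius minus TA gave 0.31 (95% interval −0.01 to 0.64, adjusted p = 0.646) for Acot13. Acot2, the mitochondrial thioesterase, had ratios of 0.44, −0.35, 0.44 and −0.21 and −0.43, 0.08, 0.01 and −0.44 and was not called.

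Ucp3, a carrier of the inner mitochondrial membrane whose transcript is known to follow the supply of fatty acids, had ratios of −0.49, 0.33, 0.24 and −0.82 in gastrocnemius and −1.11, 0.43, −0.24 and −0.73 in TA. Pairs 1 and 4 were low and pairs 2 and 3 higher in both muscles. It was not called (adjusted p = 0.573 and 0.233), other than lower in TA without pair 2. Its other probe gave −0.43, −0.0035, −0.72 and −0.55 in gastrocnemius (adjusted p = 0.0792, called lower) and −1.08, 0.18, −0.05 and −0.74 in TA. Pdk4, the kinase that turns off pyruvate dehydrogenase, was chosen after its values were seen. Pdk4 ratios were −0.58, 0.46, 0.51 and −1.62 in gastrocnemius and −2.15, 0.60, −0.03 and −1.81 in TA, again lowest in pairs 1 and 4. Limma did not call Pdk4 (adjusted p = 0.590 and 0.211), and SAM called it lower in TA. The promoter of Ucp3 is printed because it held AGGTCA at 2 places, −149 and −44 from the start, which the capitals mark (RefSeq, GRCm38.p6, plus strand, chr7:100472741-100472990).
Ucp3: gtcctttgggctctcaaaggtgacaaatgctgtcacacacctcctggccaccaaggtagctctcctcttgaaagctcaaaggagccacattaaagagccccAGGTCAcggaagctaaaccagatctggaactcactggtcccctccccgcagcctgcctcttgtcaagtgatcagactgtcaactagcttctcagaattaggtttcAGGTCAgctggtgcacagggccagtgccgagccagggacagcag

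Whether the effect of genotype differed between the muscles was tested over all 8 arrays, in which a fixed dye effect of a probe cancels. Limma called 0 of the 32 genes, and 0% of all 12202. At an unadjusted p under 0.05, 7 of 32 were higher in gastrocnemius than in TA, beside 4.71% of all genes, and 0 were lower, beside 3.47%. These 7 were Mlycd, Eci2, Cpt2, Hadhb, Eci1, Acsl1 and Acadl, with differences between 0.30 (Eci2) and 0.56 (Acadl) and an adjusted p of 0.635 each. The difference was above 0 for 30 of 32 genes, beside 52.3% of all genes, with a median of 0.35 against 0.01 over all genes. Without gastrocnemius pair 1 the median was 0.21, with 28 of 32 above 0. Limma called 0 of the cell and fibre markers in this contrast. Above 0 lay 8 of 9 slow-fibre genes (median 0.77), Myh2 (1.57), 4 of 4 blood genes (0.50, 2 at an unadjusted p under 0.05), 5 of 5 of myelinated nerve (0.11, 1 at such a p) and 7 of 10 of endothelium (0.06). Below 0 lay 7 of 7 fat cell genes (−0.75, 4 at such a p), 5 of 5 of leukocytes (−0.63), 6 of 6 of connective tissue (−0.53), 7 of 10 of fast fibres (−0.09) and 5 of 8 of skeletal muscle (−0.06). Of these last 2 lists, Myh1 (0.91) and Mb (1.12) were higher at such a p and Myh4 (−0.45) lower. Their part in the difference was not tested. Of the 32 genes, Lipe (−0.07) and Acacb (−0.07) alone lay below 0. Lpl had the largest difference, 0.84 (95% interval −0.03 to 1.72, adjusted p = 0.646). Mlycd and Eci2 were the genes whose 4 gastrocnemius ratios did not overlap the 4 TA ratios, 2 of 32 beside 4.07% of all genes. The widest intervals belonged to Fabp3 (−0.24 to 1.79) and Lpl, and 4 pairs in each muscle bound this precision.

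**Figure D3:**
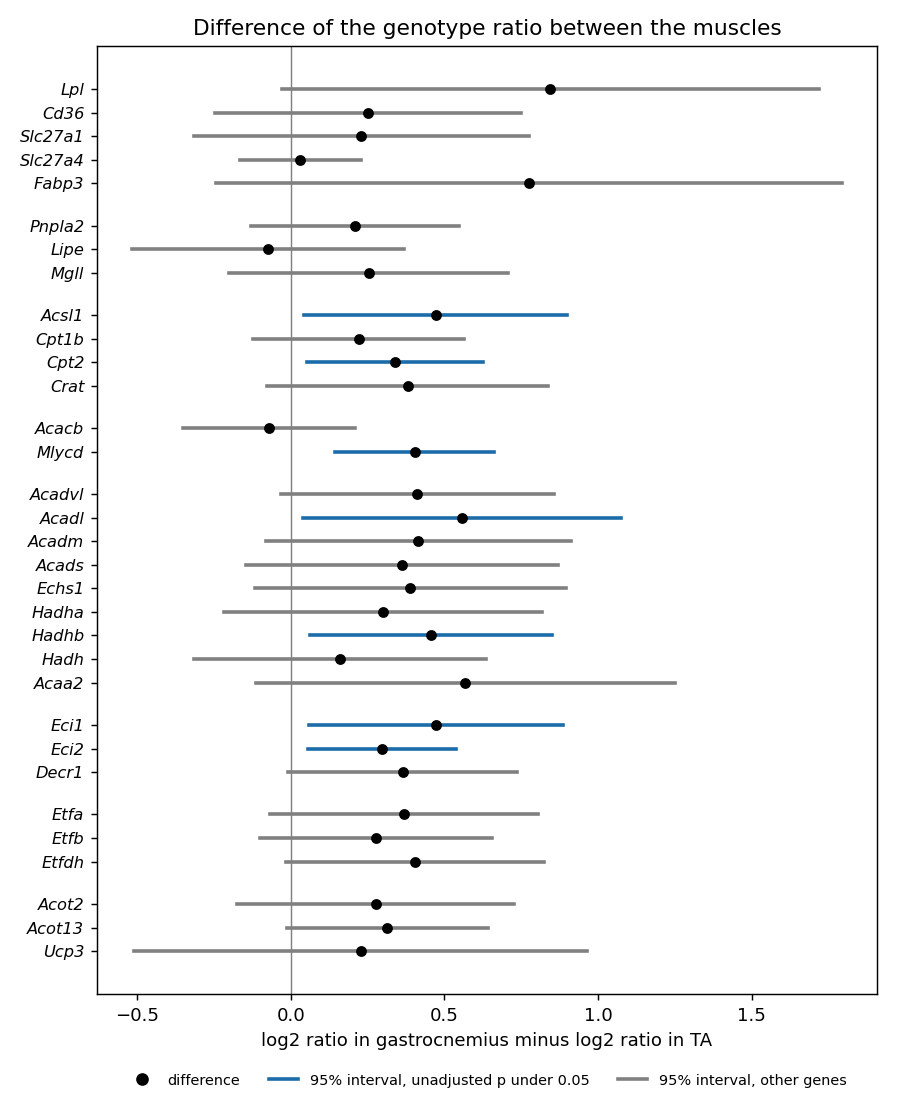
Difference of the log2 ratio between gastrocnemius and TA for the 32 genes with its 95% interval, in blue where the unadjusted p was under 0.05. The points lie above 0 for 30 of 32 genes, and 7 are blue.

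The levels of the same samples show how the muscles differed in each genotype. These comparisons use the arrays of the ratios above and are not separate evidence. In WT mice, 11 of 32 genes had a lower level in gastrocnemius than in TA, beside 14.1% of all 11843 genes. By limma 0 were higher, beside 8.75%, and 0 had an unadjusted p under 0.05 in that direction. The median difference was −0.38, against −0.03 over all genes. Markers of cell and fibre types were called in the same comparison. Of those tested, 5 of 7 of fat cells (median 2.29), 4 of 6 of connective tissue (0.94), 6 of 9 of slow fibres (2.09) and 1 of 5 of leukocytes (0.79) were higher in gastrocnemius, while 4 of 10 of endothelium (−0.26), 1 of 10 of fast fibres (0.10) and 1 of 8 of skeletal muscle (0.18) were lower. Their part in the result was not tested. Acadl had WT levels of 10.39, 10.94, 10.59 and 11.20 in gastrocnemius and 11.89, 11.55, 11.22 and 11.84 in TA, with no overlap and a difference of −0.84 (95% interval −1.28 to −0.41, adjusted p = 0.0242). Acadvl was at 14.16, 14.57, 14.25 and 14.84 and 15.19, 15.13, 14.86 and 15.62, again with no overlap (difference −0.75, 95% interval −1.15 to −0.34, adjusted p = 0.0286). For Acot13 the levels were 13.40, 13.42, 13.28 and 13.69 against 13.88, 14.15, 14.08 and 14.48 (difference −0.70, adjusted p = 0.0122), and for Eci2 12.35, 12.34, 12.24 and 12.45 against 12.89, 12.93, 12.77 and 12.96 (difference −0.54, 95% interval −0.71 to −0.36, adjusted p = 0.00501). In both the muscles did not overlap. This held for 7 of the 32 genes, near the 21.6% of all genes. The calls of Acadl, Acadvl, Acot13 and Etfdh (−0.67) were kept under all 17 alternatives. Those of Cpt2 (−0.55), Eci1 (−0.55) and Eci2 were lost with Agilent's processed signals alone, at adjusted p of 0.129, 0.159 and 0.132.

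The other 4 WT calls were lost when any of several arrays was left out. Cd36 (−0.50, adjusted p = 0.0580) was not called without gastrocnemius pair 1 or 3 or TA pair 1 or 4 (adjusted p 0.118 to 0.142; range over all 17 alternatives 0.0230 to 0.286). Decr1 (−0.43, adjusted p = 0.0845) was lost without any array but gastrocnemius pair 4 and TA pair 3 (0.120 to 0.199; range 0.0311 to 0.286). Cpt1b (−0.34, adjusted p = 0.0811) was lost without gastrocnemius pair 1 or 3 or any TA pair (0.121 to 0.192; range 0.0483 to 0.337). Mlycd (−0.35, adjusted p = 0.0986) was lost without any array but gastrocnemius pair 4 (0.127 to 0.230; range 0.0474 to 0.363). The count of 11 became 7 without gastrocnemius pair 1 or 3 or TA pair 1 or 4, and 19 without gastrocnemius pair 4, in which WT levels were the highest of that muscle for most of the genes. Of all genes, 1440 of 11886, 963 of 11849, 1423 of 11906 and 1013 of 11887 were lower in the settings that gave 7. Without gastrocnemius pair 4 there were 1518 of 12117. The 4 calls were also lost with the processed signals, with no filter on dim probes and at 0.05, and all but Cd36 with the offset at 0. Cpt1b was lost with the mean of its probes (−0.22, adjusted p = 0.273), and Mlycd with uncorrected background (0.103) or the stricter filter.

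In Eif6+/- mice the same comparison gave 3 of 32 higher in gastrocnemius, beside 6.72% of all 12611 genes, and 2 lower, beside 9.98%. These shares are near those over all genes. The median difference was −0.07, against −0.02 over all genes, and its sign turned in 2 settings. It was 0.01 without gastrocnemius pair 2, against −0.02 over all genes, with 17 of 32 above 0. With Agilent's processed signals it was 0.08, still below the 0.21 over all genes, with 21 of 32 above 0. It was −0.03 without TA pair 2 and −0.04 with the mean of a gene's probes. Of the markers, 5 of 8 of fat cells (median 1.24), 8 of 9 of slow fibres (2.17), 4 of 5 of myelinated nerve (0.51), 2 of 5 of blood (0.27), 2 of 5 of leukocytes (0.15), 1 of 6 of connective tissue (0.44), 1 of 8 of skeletal muscle (0.09) and Myh2 (1.99) were higher in gastrocnemius. Lower were 3 of 10 of endothelium (−0.21), 1 of 8 of fat cells and 1 of 10 of fast fibres (0.02), and the part of these was not tested. The levels of the 2 muscles did not overlap for 5 of the 32 genes, beside 18.1% of all genes. Crat had Eif6+/- levels of 9.44, 9.39, 9.51 and 9.47 in gastrocnemius and 9.25, 9.21, 9.02 and 9.16 in TA, without overlap (difference 0.29, 95% interval 0.14 to 0.44, adjusted p = 0.0346), a call kept under all 17 alternatives, at 0.52 with the processed signals. Lipe was at 7.19, 7.07, 6.88 and 7.24 and 6.69, 6.74, 6.85 and 6.80, also without overlap (difference 0.32, 95% interval 0.14 to 0.51, adjusted p = 0.0461), and the difference was 0.54 with the offset at 0 and 1.00 with the processed signals. Its call was lost without gastrocnemius pair 1 or 4 or TA pair 1 or 2 (adjusted p 0.108 to 0.121; range 0.00174 to 0.121). Lpl (0.75, adjusted p = 0.0627) was lost without gastrocnemius pair 1 or 4 or TA pair 1, 2 or 4 (0.106 to 0.146; range 0.0105 to 0.146), with no filter on dim probes and at 0.05. Acadvl (−0.34, adjusted p = 0.0496) was lost without TA pair 1 or 2 (0.110 to 0.124; range 0.0451 to 0.543) and with the processed signals (−0.16). Acot13 (−0.39, adjusted p = 0.0402) was lost with the processed signals alone (−0.17, range 0.0246 to 0.529). Lower calls numbered 1 without TA pair 1 or 2, beside 566 of 12635 and 640 of 12685 genes. There were 5 without TA pair 3, beside 1342 of 12621. Higher calls numbered 1 without gastrocnemius pair 1 or 4, beside 402 of 12641 and 462 of 12700 genes. They numbered 1 without TA pair 1 or 2 as well, beside 411 and 453. Calls gained in other settings were Fabp3, higher without gastrocnemius pair 2 or TA pair 3, Hadha, higher without TA pair 4, with the processed signals or with the pair as a block, Eci2, lower without TA pair 3 or 4, and Cpt2 and Etfdh, lower without TA pair 3. Agilent's processed signals were used with no scaling between arrays. With them the median over all genes moved from −0.03 to 0.19 in the WT comparison, with 1782 genes called higher and 273 lower in place of 1036 and 1668. In the Eif6+/- comparison it moved from −0.02 to 0.21, with 2338 and 88 in place of 848 and 1258. The differences given above with these signals include that shift.

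Levels of the pathway varied more among WT than among Eif6+/- samples. In gastrocnemius the SD of the level was larger in WT for 28 of 32 genes (87.5%), against 69.4% of all genes, and in TA for 27 of 32 (84.4%), against 59.8%. The median SD of the 32 was 0.30 in WT and 0.18 in Eif6+/- gastrocnemius, and 0.23 and 0.13 in TA. Over all genes it was 0.15 and 0.11 in gastrocnemius and 0.13 and 0.11 in TA. Of the 9 beta-oxidation genes, 9 in gastrocnemius and 8 in TA had the larger SD in WT. Dye and genotype cannot be told apart in this comparison, and it was not tested.

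Other genes of uptake, activation and carnitine transport numbered 33, of which 30 were tested in gastrocnemius and 29 in TA. In gastrocnemius 5 were called higher, beside 9.89% of all genes, with Acot11 (0.72, adjusted p = 0.0638), Acsl3 (0.54, 0.0482) and Vldlr (0.36, 0.0598) the largest, and 3 without pair 1 or pair 2. By limma 0 were lower, beside 5.55%, with 1 at an unadjusted p under 0.05 and 0 by SAM. Acsl3, an acyl-CoA synthetase of lipid droplets, had ratios of 0.19, 0.89, 0.65 and 0.45. In TA Acsl3 alone was called higher (0.82, 0.86, 0.49 and 0.71, adjusted p = 0.0119), beside 8.98% of all genes, and without pair 3 or pair 4 there were 2. There 3 were lower, beside 7.27% of all genes: Got2 (−0.51, adjusted p = 0.0168), which binds fatty acids at the membrane besides its work as an aminotransferase, Slc25a20, the carnitine-acylcarnitine translocase (−0.41, 0.0479), and Mecr, of mitochondrial fatty acid synthesis (−0.39, 0.0555). Lower calls fell to 0 without pair 1 (3 at an unadjusted p under 0.05), 1 without pair 2 and 2 without pair 3. The medians were −0.01 and −0.03.

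By limma, the next 3 lists stand beside 9.89% of all genes called higher and 5.55% lower in gastrocnemius, and 8.98% and 7.27% in TA. SAM called 2145 higher and 1015 lower of 12606 genes in gastrocnemius, and 1486 and 1118 of 12378 in TA. Of 20 genes of peroxisomal oxidation, 18 were tested. In gastrocnemius 1 was higher, the thiolase Acaa1a (0.39, adjusted p = 0.0376), and SAM called 3. In TA 2 were lower, among them the isomerase Ech1 (−0.83, −0.57, −0.37 and −0.77, adjusted p = 0.0136). The medians were 0.05 and −0.03, and in TA 0 were lower without pair 1 (2 at an unadjusted p under 0.05) and 1 without pair 2. Of 18 genes of lipid droplets and triglyceride storage, 17 were tested, with Agpat3 higher in gastrocnemius (0.37, adjusted p = 0.0649; SAM 7) and Agpat2 lower in TA (−0.40, adjusted p = 0.0396; SAM 2), both acyltransferases of lipid synthesis. The Agpat3 call was lost without gastrocnemius pair 1 or 2 (0 called higher by limma, with 1 and 5 at an unadjusted p under 0.05), and without pair 1 there was 1 lower. In TA there were 2 lower without pair 2, 2 higher without pair 4 and 0 of either without pair 1 (0 higher and 1 lower at an unadjusted p under 0.05). Their medians were 0.08 and −0.06. All 5 genes of ketone body use were tested, with 0 called in gastrocnemius by limma (1 higher at an unadjusted p under 0.05, and Bdh1 higher by SAM) and the thiolase Acat1 lower in TA (−0.40, adjusted p = 0.0223). Without gastrocnemius pair 2 limma also called Bdh1 higher, without TA pair 4 it called 1 gene higher there, and without TA pair 1 it called 0 lower (1 at an unadjusted p under 0.05).

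Regulators of the pathway and genes known to respond to lipids numbered 24, of which 23 were tested. In gastrocnemius 5 were called higher, beside 9.89% of all genes, with Ppara, Esrrb and Klf15 the largest, and 4 lower, beside 5.55%, with Ucp2, Prkag3 and Ncor1 the largest. Ppara, the receptor that senses fatty acids, had ratios of 2.10, 0.08, 1.25 and 0.43 (adjusted p = 0.0978), far higher in pair 1 and pair 3 than in the others. Esrrb, an estrogen-related receptor, had a mean of 0.65 (adjusted p = 0.0752) and Klf15, a factor of fasting metabolism, one of 0.62 (0.0406). Ucp2, a relative of Ucp3, had a mean of −0.64 (0.0355), Prkag3, a subunit of the AMP-activated kinase, one of −0.53 (0.0511), and the co-repressor Ncor1 one of −0.37 (0.0665). Without pair 1 there were 3 higher and 4 lower, and without pair 2 there were 8 and 3. In TA 1 of 23 was higher, beside 8.98% of all genes, and 3 were lower, beside 7.27%. Klf15 was the higher one (0.47, adjusted p = 0.0807). Ncor1 (−0.35, 0.0982), the phosphatidate phosphatase Lpin1 (−0.29, 0.0967) and the receptor Rxrb (−0.23, 0.0800) were lower there. Without TA pair 1 or pair 2 limma called 0 in either direction, with 1 higher and 2 or 3 lower at an unadjusted p under 0.05. Without TA pair 3 there were 0 lower (4 at an unadjusted p under 0.05), and without pair 4 there were 6 lower and 0 higher (1 at that p). The medians were −0.13 and −0.14. In none of these 5 lists was a gene called by limma for the difference between muscles, as in all genes. At an unadjusted p under 0.05, 2 of 29, 4 of 18, 1 of 17, 0 of 5 and 7 of 23 were higher in the order given, beside 4.71% of all genes. Of the regulators 1 was lower and of the other lists 0, beside 3.47%. Without gastrocnemius pair 3 or pair 4 limma called 0 of any list, as of all genes.

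Fibre type was followed through 9 genes of slow fibres, the IIA myosin Myh2 and 10 genes of fast fibres. The median ratio of the slow-fibre genes was 2.62, −1.29, −0.29 and −0.34 in gastrocnemius pairs 1 to 4 and −0.20, −0.68, −0.08 and −0.70 in TA pairs 1 to 4. Their summed level in gastrocnemius was 18305, 67866, 45678 and 158098 in WT and 139566, 33406, 49987 and 139421 in Eif6+/-. In TA it was 14433, 37667, 12636 and 41759 in WT and 15265, 27156, 12977 and 17044 in Eif6+/-. The WT sample of gastrocnemius pair 1 was thus low and its Eif6+/- partner high, and in TA pair 4 the WT sample was the high one. In gastrocnemius limma called 0 of 9 (0 at an unadjusted p under 0.05, 0 by SAM), and without pair 1 it called 4 lower. In TA 4 were lower, beside 7.27% of all genes, Tnnt1 (−0.90, adjusted p = 0.0236), Tnni1 (−0.80, 0.0245), Myh7b (−0.68, 0.0119) and Tnnc1 (−0.41, 0.0350), and without pair 1 there was 1. Without TA pair 4 limma also called 1 higher. Myl3, the brightest of the list, was highest in gastrocnemius pair 1 and lowest in TA pair 4. In WT mice 6 of 9 were higher in gastrocnemius than in TA, beside 8.75% of all genes, with a median difference of 2.09.

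Myh2, the IIA myosin, had ratios of 3.92, 0.52, 1.41 and 0.62 in gastrocnemius (adjusted p = 0.103, called by SAM and by limma without pair 1) and 1.44, −0.04, 0.34 and −1.55 in TA. Its level, not on the log scale, was 9290, 62371, 36012 and 85911 in WT gastrocnemius and 140211, 89736, 95449 and 132475 in Eif6+/-. In TA it was 9609, 52214, 15455 and 71475 in WT and 26051, 50759, 19627 and 24420 in Eif6+/-. Like the median of the 32 genes, Myh2 was highest in gastrocnemius pair 1 and lowest in TA pair 4. The 2 had the same sign there and in gastrocnemius pair 3, and opposite signs in the other pairs. Of the fast-fibre genes, of which Pvalb was the brightest, Myh1 was higher in gastrocnemius (0.96, adjusted p = 0.0519) and Actn3 (−0.36, 0.0570) and Atp2a1 (−0.72, 0.0744) lower. In TA Myh4 (0.80, 0.0119) and Tnnc2 (0.57, 0.0263) were higher and Mylpf (−0.34, 0.0506) and Atp2a1 (−0.60, 0.0490) lower. These are 1 higher and 2 lower of 10, beside 9.89% and 5.55% of all genes, and 2 and 2, beside 8.98% and 7.27%. Without gastrocnemius pair 1 there were 4 higher and 2 lower, and without pair 2 there were 1 and 0 (3 lower at an unadjusted p under 0.05). Without TA pair 1, 2 or 3 there were 1, 2 and 3 higher and 0 lower (2 at an unadjusted p under 0.05 each time). Without TA pair 4 there were 2 higher and 3 lower. Their summed level stayed between 945489 and 1238009 in every sample. The part of fibre composition in the ratios of the 32 genes was not tested.

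**Figure D4:**
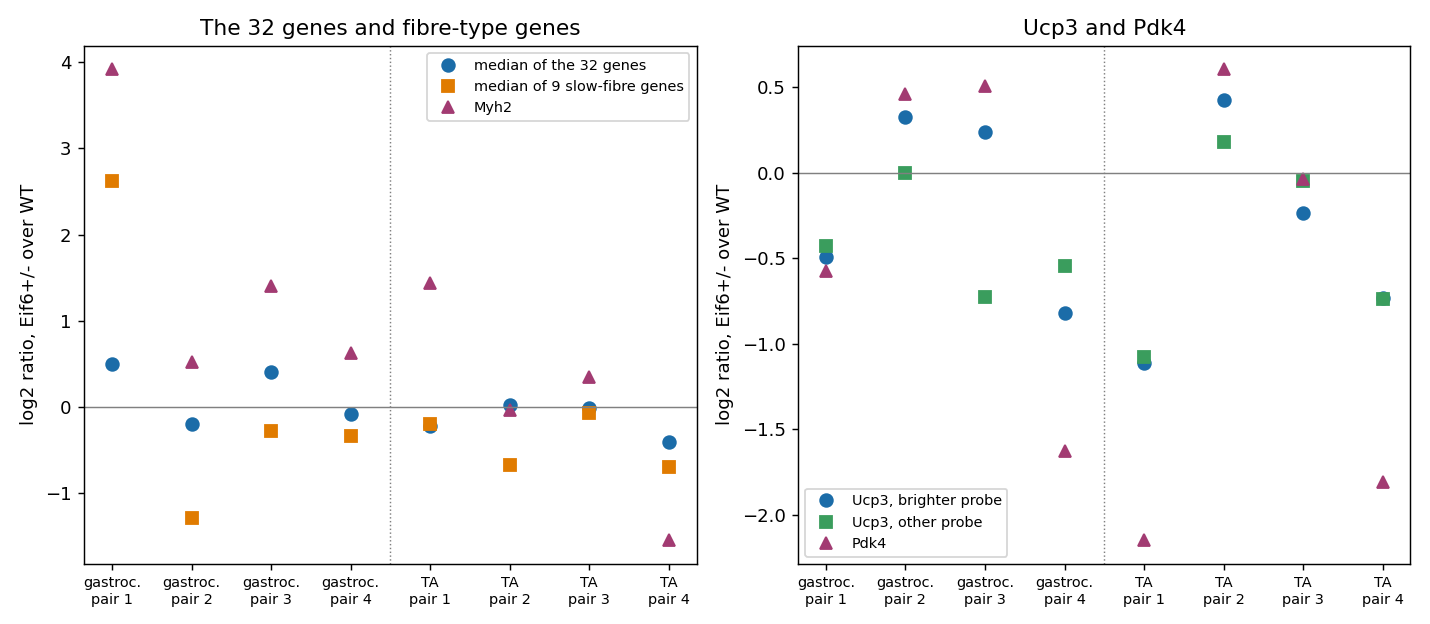
Left, the median log2 ratio of the 32 genes, the median of 9 slow-fibre genes and the ratio of Myh2 on each of the 8 arrays, all highest in gastrocnemius pair 1. Right, the log2 ratios of both Ucp3 probes and of Pdk4 on the same arrays.

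Fat cells also express many of the 32 genes. The limma calls of this and the next lists stand beside 9.89% of all genes higher and 5.55% lower in gastrocnemius, and 8.98% and 7.27% in TA. Those of SAM stand beside 2145 higher and 1015 lower of 12606 genes, and 1486 and 1118 of 12378. The 9 fat cell markers, with Fabp4 the brightest, summed to 37484, 31385, 22475 and 71097 in WT gastrocnemius and to 27394, 29359, 17032 and 27652 in Eif6+/-. In TA the sums were 15467, 14025, 15573 and 16780 in WT and 15691, 13929, 25004 and 14787 in Eif6+/-. The WT sample of gastrocnemius pair 4 and the Eif6+/- sample of TA pair 3 were the high ones. In gastrocnemius 2 of 8 tested were lower, Cfd (−0.89, adjusted p = 0.0740) and Adipoq (−0.64, 0.0996), with 1 left without pair 1. In TA 3 of 7 were higher, Retn (0.65, 0.0732), Cidec (0.60, 0.0707) and Plin1 (0.51, 0.0790). By limma 0 of these were called without TA pair 1 (3 at an unadjusted p under 0.05) and 1 without pair 3 or pair 4. Lep was not tested in either muscle and Adrb3 not in TA, for lack of signal. Fabp4 and Pparg are in a pathway list too, as is Gpihbp1 of the endothelial list. The part of fat cells in the results was not tested.

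Endothelial markers, 10 genes with Egfl7 the brightest, had 2 lower in gastrocnemius, Cldn5 (−0.63, adjusted p = 0.0397) and Tie1 (−0.54, 0.0504). In TA 4 were lower, Cldn5 (−0.67, 0.0243), Tie1 (−0.49, 0.0290), Pecam1 (−0.32, 0.0650) and Emcn (−0.28, 0.0695). They summed to 11073, 12060, 10450 and 12561 in WT and 10922, 10346, 12446 and 11212 in Eif6+/- gastrocnemius. In TA the sums were 14579, 16164, 13515 and 16053 in WT and 12658, 13730, 14560 and 14069 in Eif6+/-. Without gastrocnemius pair 1 there were 3 lower, without TA pair 1 limma called 0 (4 at an unadjusted p under 0.05), and without TA pair 2 or pair 4 there were 2.

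Blood genes, with Hba-a1 the brightest, were lower in TA for 5 of 5: S100a9 (−1.61, adjusted p = 0.0343), Hbb-bs (−1.30, 0.0166), Hba-a1 (−0.72, 0.0277), Alas2 (−0.67, 0.0137) and Hbb-bt (−0.64, 0.0257). Their sums in TA were 28373, 24764, 22856 and 23276 in WT and 17121, 10763, 14435 and 18284 in Eif6+/-, with no overlap. Without TA pair 1 limma called 0 (5 at an unadjusted p under 0.05). In gastrocnemius the sums were 18008, 27191, 31354 and 21328 in WT and 18456, 19296, 17867 and 20088 in Eif6+/-. There limma called 0 of the 4 tested, all but S100a9 (3 lower at an unadjusted p under 0.05, 2 by SAM), and 3 lower without pair 1. The part of blood and vessels in the results was not tested.

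Of 5 genes of myelinated nerve, 3 were lower in TA, among them Prx (−0.44, adjusted p = 0.0267), the brightest, and Mbp (−0.21, 0.0876), with 1 left without TA pair 1 and 2 without any other TA pair. In gastrocnemius limma called 0 (0 at an unadjusted p under 0.05, 0 by SAM). They summed to 1955, 2423, 1045 and 1397 in WT and 1675, 1958, 1088 and 1619 in Eif6+/- gastrocnemius, and to 1159, 1326, 1113 and 1227 in WT and 960, 1040, 845 and 960 in Eif6+/- TA. Of 7 leukocyte genes, with Itgam the brightest, 5 were tested in gastrocnemius, where Cd74 was lower (−1.10, adjusted p = 0.0445) and without pair 2 there were 2. In TA limma called 0 of 6 (1 higher and 1 lower at an unadjusted p under 0.05, 1 and 1 by SAM). Ptprc was not tested in gastrocnemius for lack of signal, and Cd68 had no named probe. The sums of the other 6 were 8595, 6719, 11993 and 5987 in WT and 5536, 6034, 5453 and 5523 in Eif6+/- gastrocnemius, and lay between 4324 and 5985 in TA.

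Connective tissue genes, 6 with Col1a2 the brightest, gave 0 calls by limma in both muscles. At an unadjusted p under 0.05 there was 1 lower in gastrocnemius and 0 in TA, and SAM called Col3a1 lower in gastrocnemius and 0 in TA. Limma called 1 lower without gastrocnemius pair 2, 1 higher without TA pair 2 and 1 lower without TA pair 3. The sums in gastrocnemius were 167548, 111131, 285459 and 132575 in WT and 169804, 115286, 111594 and 166041 in Eif6+/-. In TA they were 61689, 94514, 39608 and 87931 in WT and 73879, 53372, 173535 and 76604 in Eif6+/-, apart in pair 3. The 8 skeletal muscle markers, with Acta1 the brightest, summed to between 454618 and 608910, a range that the quantile step limits as well. Of these Des (−0.68, adjusted p = 0.0511) and Ckm (−0.37, 0.0578) were lower in gastrocnemius, and Mb (−0.54, 0.0656), Des (−0.49, 0.0329) and Ryr1 (−0.35, 0.0984) in TA. Of the muscle markers limma called 1 lower without gastrocnemius pair 2, and 0 (2 at an unadjusted p under 0.05), 1, 1 and 4 without TA pairs 1 to 4. The part of these cell types in the results was not tested.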

How the data were processed

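For each array the authors deposited the spot intensities of the scanner software (Feature Extraction 10.5.1.1), not normalized, with local backgrounds and quality marks, and a table of log2 ratios. The deposited log2 ratios matched what loess within the array makes of intensities without background correction (r over spots of 0.999961 to 0.999996) and had column medians of 0.00257, 0.000831, −0.00441 and 0.00375 for gastrocnemius pairs 1 to 4 and of 0.00138, −0.000366, 0.00288 and 0.00212 for TA pairs 1 to 4. The files hold no mean signal, so the median signal was used.

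Intensities were corrected by normexp (offset 50) with the median of the local background, then normalized by loess within arrays, where control spots had weight 0, and by quantiles across the 16 channels, on the log2 scale (limma 3.58.1, R 4.3.3). Outlier spots (233 to 318 per array) were dropped, and spots of a probe were averaged. RefSeq accessions named 27235 of 28685 probes that carry one. Tests in a muscle took the probes that all 4 of its arrays showed well above background in 1 channel or both. The log2 ratios were tested against 0, between muscles as a contrast over 8 arrays, and levels between muscles within each channel, with lmFit and eBayes, Benjamini-Hochberg adjustment over all kept probes and a threshold of 0.1. Tests were tried on simulated data first. Promoters and figures used Python 3.11.15 and matplotlib 3.10.9.

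The alternatives were loess alone, quantiles alone, quantiles within the channel for levels, an offset of 0, uncorrected background, Agilent's processed signals, the log2 ratios the authors deposited, the filter on dim probes dropped or made stricter, a threshold of 0.05, the mean of a gene's probes, each pair left out, all 8 arrays in 1 fit, SAM written from its description, and the pair number as a block. Named in the text are the 32 genes and Eif6, from each of 5 pathway lists at most 3 called genes per direction and muscle, and from each of 10 marker lists the brightest, defining and called genes. Of the called genes that this rule picks, 2 are counted but not reported here by name. The genes and lists were chosen with earlier results of these data known. Soleus, polysomes and human data were not used.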

Additional observations from a re-analysis of the deposited data

Results flagged for a closer look

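Of 258 groups of 4 samples, 8 held a sample whose gap to its nearest neighbour took up more of the range of its group than Dixon's 95% limit for 4 samples allows, and chance gives about 1 group in 20. The log2 ratio of Etfdh in TA was −0.36 in pair 4 and 0.18 to 0.28 in the others, a gap of 0.843 of the range. The WT level of Acads in TA was 10.39 in pair 1 and 9.76 to 9.86 in the others (0.854). The WT level of Echs1 in TA was 11.68 in pair 3 and 12.21 to 12.31 in the others (0.835). The Eif6+/- level of Cd36 in gastrocnemius was 10.03 in pair 2 and 10.46 to 10.53 in the others (0.85). The summed Eif6+/- level of the 32 genes in TA was 280890 in pair 2 and 252383 to 254903 in the others (0.912). The summed Eif6+/- level of the fat cell markers was 17032 in gastrocnemius pair 3, against 27394 to 29359 (0.841), and 25004 in TA pair 3, against 13929 to 15691 (0.841). The summed Eif6+/- level of the leukocyte markers in gastrocnemius was 6034 in pair 2 and 5453 to 5536 in the others (0.857).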

How the results depend on the processing

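Of the 32 genes, 5 were called higher in gastrocnemius, and 2 were with the normexp offset at 0, 1 with Agilent's processed signals, 1 at a threshold of 0.05 and 0 to 6 with 1 pair left out, where 0 to 3 were called lower. Over all genes the 1247 higher became 934, 811, 436 and 0 to 1052 in the same settings. The 8 lower in TA became 4 with the offset at 0, 4 with the processed signals, 4 at 0.05, 3 with all 8 arrays in 1 fit and 1 to 10 with 1 pair left out, where 0 to 1 were higher. Of all genes the 900 lower became 524, 332, 337, 712 and 15 to 929. In the WT levels, 11 lower became 4 with the processed signals, where 1 (Lipe) was higher, 7 without the filter on dim probes, 7 at 0.05 and 7 to 19 with 1 array left out. On the whole array the 1668 lower became 273, 1327 (of 20660), 980 and 963 to 1547. In the Eif6+/- levels, 2 lower became 0 with the processed signals and 1 to 5 with 1 array left out, and 3 higher became 1 to 4. There the 1258 genes lower on the whole array became 88 and 566 to 1342. With 1 array left out, the 848 higher became 402 to 1030. Beyond the smaller number of arrays or the stricter threshold, the cause was not tested. The other settings kept each of these counts of the 32 genes within 1.5 times, and the difference between muscles gave 0 of the 32 in all settings run. With the pair number as a block, the difference gave 0, the WT levels 16 lower, and the Eif6+/- levels 4 higher and 2 lower. The pair numbers were not shown to link samples across the muscles: the correlation of deviations between pairs of the same number was −0.145, 0.0186, −0.356 and 0.0895. Signal over background kept some listed genes out of the tests but none of the 32, and 4 pairs per muscle limit the precision.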
